A study of Mus musculus with 16 samples.

Results

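Tnf, Acod1 and 8 genes of the NF-κB pathway and its feedback (Nfkbia, Nfkbiz, Tnfaip3, Nfkb1, Nfkb2, Relb, Icam1 and Gadd45b) were followed in cultured mouse peritoneal macrophages exposed to high glucose, to oxidised low-density lipoprotein (ox-LDL), or to both. The members were taken by gene symbol: these 10 were found among the 15871 entries of the count table, and all 10 were among the 13527 entries that passed the filter on low counts. The cells came from wild-type (WT) C57BL/6 mice aged 8 weeks whose peritoneal cavity had been injected with 6% soluble starch, a mild irritant that draws macrophages into the cavity. They were kept in DMEM with 10% serum, and RNA was taken after 48 h of treatment. Every group held 4 libraries. L_C cells, the low-glucose control, received 27.5 mM mannitol, a sugar alcohol that matches the osmotic load of glucose. L_O cells received ox-LDL, which the labels give as 50 mg/ml, in low glucose. That unit is far above common practice and may be a slip in the labels, so the dose is uncertain. H_C cells received 33 mmol/L glucose, and H_O cells received 33 mmol/L glucose together with the same ox-LDL. The treatment label of L_O does not name mannitol, so in L_O against L_C the presence of ox-LDL and a possible absence of mannitol cannot be told apart. In H_O against L_O, glucose and a possible difference in osmotic load cannot be told apart either. The comparison of the ox-LDL effects between glucose levels shares this limit. The labels do not say whether the 4 libraries of a group came from separate animals or cultures, and p-values therefore measure only the spread between these libraries, which may be technical.

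NF-κB is a family of dimeric transcription factors that IκB proteins hold inactive in the cytoplasm. Signals from Toll-like receptors or from tumour necrosis factor (TNF) activate IκB kinases, the IκB proteins are degraded, and the dimers enter the nucleus and switch on cytokines, adhesion molecules and their own inhibitors. Nfkbia (IκBα) and Tnfaip3 (the ubiquitin-editing enzyme A20) are textbook negative feedback genes of this kind, and in macrophages the same system drives Tnf itself. Acod1 encodes the mitochondrial enzyme that makes itaconate from cis-aconitate in activated macrophages, and it responds to interferons as well as to NF-κB.

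Total counts per library ran from 32596640 to 41712885, and levels are given as CPM (read counts scaled to a common library size with TMM, a scaling that damps the weight of a few abundant genes). The members were covered by 175 to 9804 reads per library, the lowest being Tnf. Macrophage markers were abundant, with sums of 17100 to 20600 CPM in every library. Several summed marker lists were lower in all ox-LDL libraries than in all others: 1110 to 1710 CPM without it and 636 to 775 with it for small peritoneal macrophages and monocytes, 674 to 885 against 504 to 560 for large peritoneal macrophages, 109 to 184 against 66.5 to 84.4 for neutrophils (Ly6g, Camp, Ngp, Mpo and Elane had no row), 14.2 to 23.6 against 3.73 to 5.72 for eosinophils (Epx, Prg2, Ear1 and Ear6 had no row), and 104 to 129 against 67.6 to 77.4 for endothelial cells. The neutrophil sum was mostly Csf3r, at means of 141 and 109 CPM in L_C and H_C and 74.4 and 65.9 in L_O and H_O. S100a8 of that list did not fall (3.67 and 3.28 against 4.11 and 4.33). The eosinophil sum was mostly Siglecf. The large peritoneal macrophage sum was mostly Cd9 and F10, with Gata6 and Timd4 at means of at most 4.51 and 2.04 CPM. Summed dendritic cell markers were low and also separate, at 2.84 to 5.72 CPM without ox-LDL and 1.18 to 2.64 with it (Flt3 and Siglech had no row). The endothelial sum was mostly Vwf and Kdr, with Pecam1 and Cdh5 at means of at most 0.813 and 0.725 CPM. These sums alone do not show that such cells were present or lost. The sums for mesothelial cells and fibroblasts overlapped, at 41.3 to 218 CPM without ox-LDL and 25.6 to 111 with it. Summed B-cell markers reached at most 2.36 CPM and T- and NK-cell markers at most 12.3. The part of these marker shifts in the ox-LDL results was not tested. In all, 3 libraries stood apart. In L_C replicate 4 mitochondrial transcripts made up 3.71% of counts against 1.48 to 2.30% elsewhere, and H_O replicate 2 carried more Acod1 and more of several interferon- and NF-κB-responsive genes than the other H_O libraries. In H_C replicate 3, 8 of the 9 tested mesothelial and fibroblast markers were over 1 higher on the log2 scale than in the other H_C libraries, with a median of 1.81. Values without the library concerned, in part chosen after seeing the data, stand beside the results that turn on it.

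Promoter sequences are shown for the members whose κB elements or whose transcript changes the results below turn on. RefSeq windows of 300 bases (250 before and 50 after an annotated start, GRCm38.p6, the mm10 build of the files) were found for 7 of the 10 members. Those shown are printed 5′ to 3′ on the gene's own strand. These 7 members had 10 windows in all. A search on both strands for the NF-κB consensus (the κB consensus) matched 5 of the 10 windows, from 3 of the members, Nfkbia, Tnfaip3 and Nfkb2. Another Tnfaip3 window held no match, and the other Nfkb2 windows held matches. Neither is printed. The same search matched 1480 of all 32851 promoter windows, or 4.51%. Capitals mark κB matches in the first 3 sequences. The Nfkbia window is chr12:55492598-55492897 (minus strand), with 1 match beginning 29 bases before the start. The Tnfaip3 window printed is chr10:19015361-19015660 (minus strand), with matches 125 and 12 bases before the start. The Nfkb2 window printed is chr19:46304487-46304786 (plus strand), with overlapping matches 39 and 38 bases before the start and another at 11 bases before it.
Nfkbia: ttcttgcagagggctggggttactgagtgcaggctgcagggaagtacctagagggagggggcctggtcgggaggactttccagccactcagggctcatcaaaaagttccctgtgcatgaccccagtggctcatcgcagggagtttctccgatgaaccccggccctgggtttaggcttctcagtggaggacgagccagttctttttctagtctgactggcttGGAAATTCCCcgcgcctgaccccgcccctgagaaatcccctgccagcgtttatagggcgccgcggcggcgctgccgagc
Tnfaip3: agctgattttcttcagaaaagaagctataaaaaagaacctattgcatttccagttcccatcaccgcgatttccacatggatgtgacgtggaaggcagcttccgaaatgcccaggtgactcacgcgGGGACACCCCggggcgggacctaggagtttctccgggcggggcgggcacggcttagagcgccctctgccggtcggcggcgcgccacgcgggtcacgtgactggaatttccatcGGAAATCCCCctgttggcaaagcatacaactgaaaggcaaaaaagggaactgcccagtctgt
Nfkb2: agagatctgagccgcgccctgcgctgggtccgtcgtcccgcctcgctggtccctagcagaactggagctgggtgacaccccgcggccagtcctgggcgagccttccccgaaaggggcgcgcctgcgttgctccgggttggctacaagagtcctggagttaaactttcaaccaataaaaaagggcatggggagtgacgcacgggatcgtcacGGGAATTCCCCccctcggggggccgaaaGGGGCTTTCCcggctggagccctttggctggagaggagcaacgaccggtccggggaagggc

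The Tnf, Acod1 and Gadd45b windows held no match to the κB consensus in either orientation. They are shown because these 3 genes had the largest transcript differences among the members. Capitals mark the letters TATAAA on the printed strand, which begin 29 bases before the start in Tnf, 28 before it in Acod1 and 46 before it in Gadd45b. TATAAA on either strand occurred in 13.6% of all promoter windows, and by its letters it cannot share a base with a κB match. The windows are chr17:35201958-35202257 (minus strand) for Tnf, chr14:103046762-103047061 (plus strand) for Acod1 and chr10:80929841-80930140 (plus strand) for Gadd45b. A match is a description of the letters in the window and not a measured binding site.
Tnf: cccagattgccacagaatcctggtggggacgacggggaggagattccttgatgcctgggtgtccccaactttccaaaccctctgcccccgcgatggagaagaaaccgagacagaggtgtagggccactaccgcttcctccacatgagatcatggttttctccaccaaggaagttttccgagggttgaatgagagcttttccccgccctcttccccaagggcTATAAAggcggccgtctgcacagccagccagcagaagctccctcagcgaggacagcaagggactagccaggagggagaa
Acod1: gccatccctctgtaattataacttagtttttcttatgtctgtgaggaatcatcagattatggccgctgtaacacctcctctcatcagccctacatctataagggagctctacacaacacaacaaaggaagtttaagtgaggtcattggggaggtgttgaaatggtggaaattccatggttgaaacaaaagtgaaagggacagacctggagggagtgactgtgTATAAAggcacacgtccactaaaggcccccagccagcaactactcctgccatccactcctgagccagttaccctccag
Gadd45b: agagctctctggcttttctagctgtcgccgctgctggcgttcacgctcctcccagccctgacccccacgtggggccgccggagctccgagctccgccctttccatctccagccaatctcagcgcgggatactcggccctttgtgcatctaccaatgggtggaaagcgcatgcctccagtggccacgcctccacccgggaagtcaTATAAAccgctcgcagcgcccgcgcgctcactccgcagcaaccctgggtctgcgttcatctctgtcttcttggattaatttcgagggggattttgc

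Adding ox-LDL lowered Acod1 and Gadd45b by far the most, with smaller falls of Relb and Tnfaip3, at both glucose levels. Nfkb1 and Icam1 passed the test in low glucose alone, and Nfkb2 in high glucose alone, although none of these differences between glucose levels passed its own test. Tnf and Nfkbia rose with ox-LDL in high glucose. High glucose without ox-LDL lowered Tnf and Icam1. In bulk RNA, fewer cells of a type and less RNA per cell cannot be told apart, and this applies to each of these falls.

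The counts behind this were as follows, with called meaning an adjusted p under 0.05 over all 13527 entries tested. The members were chosen with earlier results of these data known, so counts above the background are not independent support. In L_O against L_C, 6 of the 10 members were called, 0 higher and 6 lower, where 25.8% of all entries were called (12% higher and 13.8% lower). The median log2 fold change was -0.278 over the members and 0.000925 over all entries. In H_O against H_C, 7 members were called, 2 higher and 5 lower, against 21.9% of all entries (10.4% higher and 11.5% lower), with medians of -0.204 and 0.00894. These background splits depend on scaling: with plain library totals 2857 entries were higher and 1392 lower in low glucose, and 2176 higher and 1166 lower in high glucose, while 1 member was higher and 6 lower in the former and 2 and 5 in the latter. In H_C against L_C, 2 members were called, both lower, against 12.8% of all entries (7.75% lower), a share of members close to the background. In H_O against L_O none of the 10 was called where 6.11% of all entries were. There 4 members had an unadjusted edgeR p under 0.05, as did 19.7% of all entries. With L_C replicate 4 and H_O replicate 2 both left out, 7, 8, 3 and 2 members were called in the 4 comparisons. All were lower except Tnf and Nfkbia in H_O against H_C, and the 2 in H_O against L_O were Gadd45b and Nfkb2. That setting was chosen after seeing the data. In H_O against L_O it also raised the number of calls over all entries, as given further below, so these 2 calls are not a gain particular to the members. The ox-LDL comparisons of the 2 glucose levels share no library, whereas each glucose comparison shares a group with each of them. Both Tnf calls use the same H_C libraries, and both Icam1 calls use the same L_C libraries, so these are not independent of each other.

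**Figure D1:**
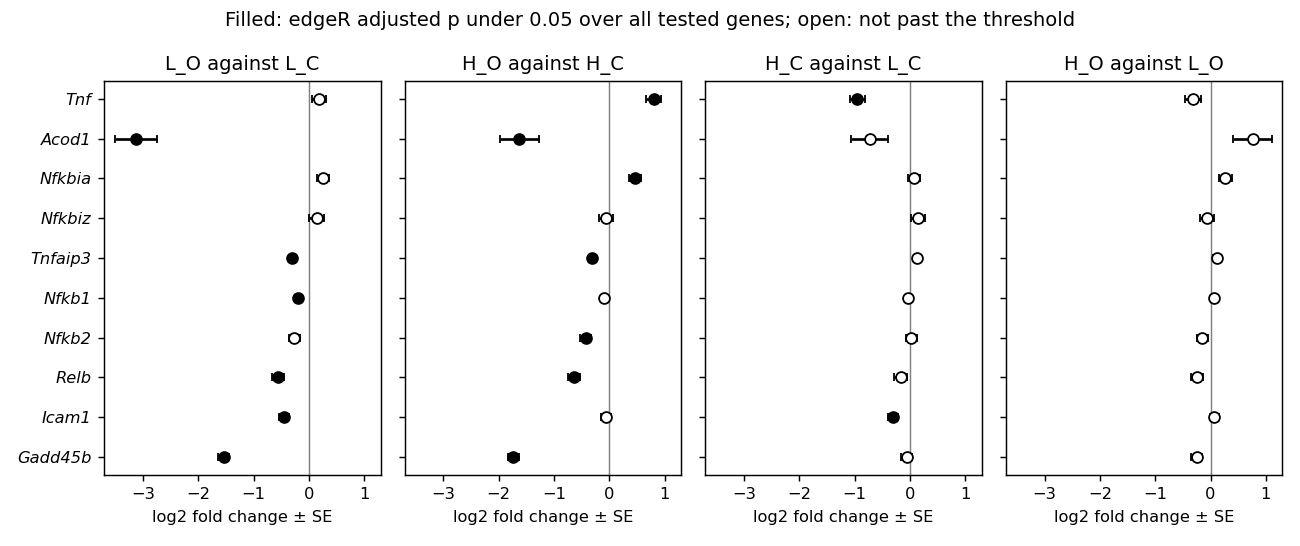
Log2 fold change (x axis) of the 10 genes (y axis) in the 4 comparisons, with bars of 1 standard error. Filled points have an edgeR adjusted p under 0.05: Acod1 and Gadd45b lie farthest left in both ox-LDL panels, and no point is filled in H_O against L_O.

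Tnf (chr17:35199381-35202007, minus strand) encodes the cytokine that macrophages release on inflammatory activation. Its level was 9.40, 11.0, 9.71 and 11.0 CPM in L_C, 11.8, 8.47, 12 and 14.3 in L_O, 5.34, 5.46, 5.33 and 5.22 in H_C, and 8.93, 9.33, 11.1 and 7.88 in H_O. All 4 H_C libraries lay below each of the other 12 libraries, and the other 3 groups overlapped each other. High glucose without ox-LDL thus went with a mean of 5.34 ± 0.0975 CPM (SD, n = 4) against 10.3 ± 0.864 in L_C, 1.93-fold lower (log2 fold change -0.95 ± 0.14, SE, adjusted p = 0.000197). With ox-LDL in high glucose Tnf was 1.74-fold higher, at 9.30 ± 1.33 CPM (log2 fold change 0.80 ± 0.14, adjusted p = 0.000302). In low glucose the ox-LDL difference was 0.18 ± 0.13 on the log2 scale (adjusted p = 0.38). The test of whether the ox-LDL effect differed between glucose levels gave a log2 difference of 0.62 ± 0.19 with an edgeR unadjusted p of 0.00472, which did not pass after adjustment over all entries (adjusted p = 0.298). Between L_O and H_O the log2 difference was -0.32 ± 0.14 (adjusted p = 0.185), and without L_O replicate 2, the lowest of its group, it was -0.449 (adjusted p = 0.0379). The 4 H_C values, from 175 to 208 reads, had a coefficient of variation of 1.83%, less than the 7.30% that counting alone gives at that depth, so their SD understates the error of a Tnf level.

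Several genes that act on TNF after transcription fell with ox-LDL. Adam17, the protease that sheds TNF from the cell surface, went from 296 ± 10.5 to 185 ± 6.75 CPM in low glucose (adjusted p = 3.02e-09) and from 292 ± 3.38 to 178 ± 11.1 in high glucose (adjusted p = 2.01e-09). Of the 4 shedding genes tested, 2 were lower in L_O against L_C and 1 in H_O against H_C (2 without L_C replicate 4). Over all entries 25.8% and 21.9% were called in these comparisons, so 1 of 4 is close to the background. Among 7 genes that bind AU-rich or stem-loop elements of cytokine mRNA and promote or control its decay, 3 were lower and 0 higher in each ox-LDL comparison: Zfp36 (tristetraprolin), Zfp36l2 and Rc3h1. Zfp36 fell from 66.8 ± 16.9 to 38.5 ± 3.30 CPM in low glucose (adjusted p = 6.2e-05) and from 49.2 ± 3.58 to 31.9 ± 0.654 in high glucose (adjusted p = 0.000849). L_C replicate 4, at 91.3 CPM, lay above the 54.8 to 64.7 of the other L_C libraries, and without it the log2 fold change in low glucose was -0.61 in place of -0.80 (adjusted p = 1.87e-06). In H_C against L_C Zfp36 was lower by -0.44 on the log2 scale (adjusted p = 0.02), by -0.25 without L_C replicate 4 (adjusted p = 0.0205), and the call was lost without H_C replicate 3 (-0.42, adjusted p = 0.0517). Zfp36 and Tnf moved in opposite directions in H_O against H_C, and both were lower in H_C against L_C. In L_O against L_C Zfp36 fell and the Tnf difference did not pass. A part of Zfp36 in the Tnf levels was not tested.

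On the receiving side, 15 genes of the TNF receptor complex were tested. In L_O against L_C 2 rose and 5 fell, and in H_O against H_C 2 rose and 2 fell. The shares called over all entries were 25.8% and 21.9%, so the count in high glucose is near the background. Tnfrsf1a, the main TNF receptor, and Casp8, the caspase it can recruit, were the genes that rose in each, Casp8 from 65.5 ± 3.47 to 78.8 ± 3.13 CPM in low glucose (adjusted p = 0.000532) and from 60.4 ± 2.46 to 72.0 ± 2.45 in high glucose (adjusted p = 0.00102). Traf1 and Birc3, which limit cell death and are themselves NF-κB targets, fell in each, though Birc3 lost the call in high glucose without H_C replicate 3 (adjusted p = 0.0501). Traf1 went from 7.81 ± 0.869 to 4.14 ± 0.328 CPM in low glucose (adjusted p = 2.35e-05) and from 9.24 ± 1.35 to 5.20 ± 0.471 in high glucose (adjusted p = 6.87e-05). Tnfrsf1b, the other TNF receptor, was the receptor transcript that high glucose changed: 910 ± 29.0 CPM in L_C against 772 ± 16.8 in H_C (adjusted p = 0.000903), and 807 ± 23.9 in L_O against 727 ± 38.0 in H_O (adjusted p = 0.0373, and 0.0583 without H_C replicate 3).

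**Figure D2:**
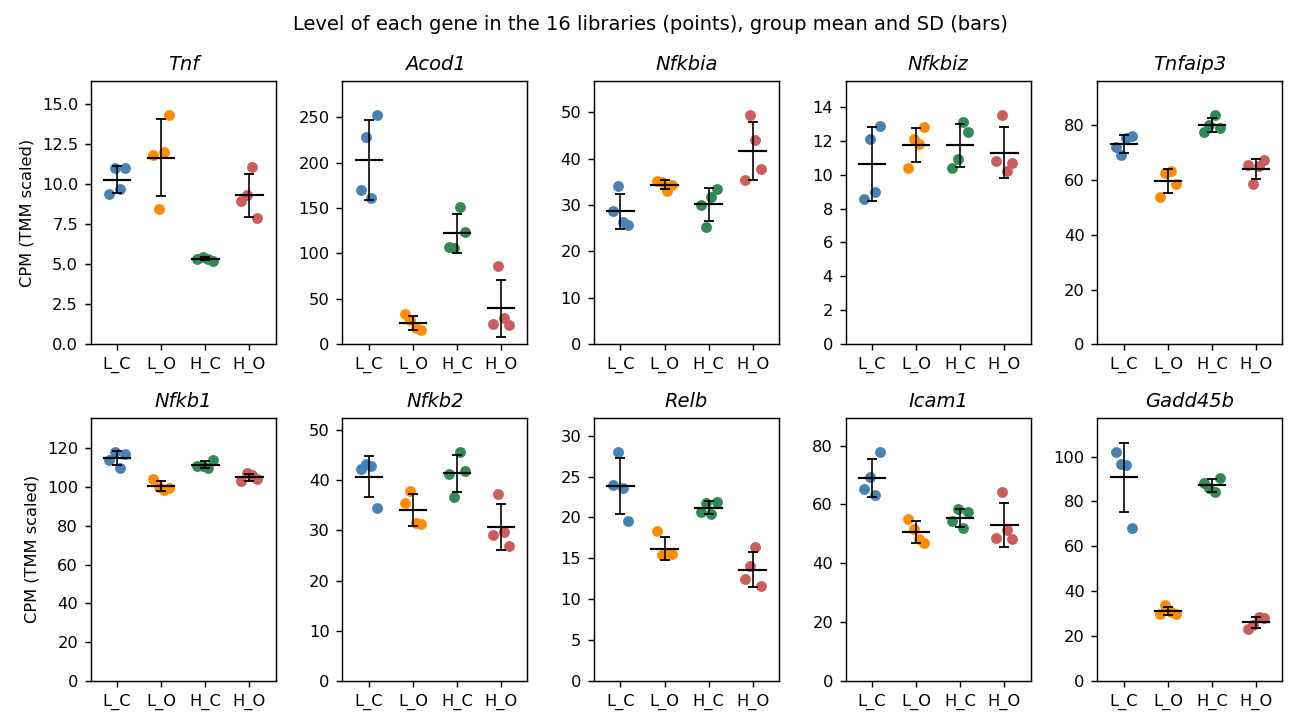
CPM (y axis, from 0) of the 10 genes in the 4 groups (x axis), 1 point per library, with the group mean and SD as bars. Tnf is low in the 4 H_C libraries at 5.22 to 5.46 CPM, Gadd45b is low in all 8 ox-LDL libraries, and H_O replicate 2 lies above its group for Acod1 at 86.0 CPM.

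Nfkbia (chr12:55489410-55492647, minus strand) encodes IκBα, the inhibitor that NF-κB induces to end its own response. Its promoter window holds the κB match printed above. Nfkbia stood at 28.6, 34.0, 26.4 and 25.6 CPM in L_C, 35.2, 35.0, 33.1 and 34.3 in L_O, 30.0, 25.3, 31.8 and 33.5 in H_C, and 35.3, 49.3, 43.9 and 37.8 in H_O. The H_O libraries were the highest of all groups, each above every L_O and H_C library, while L_O overlapped L_C through L_C replicate 2. In high glucose the rise with ox-LDL was 1.38-fold, from 30.2 ± 3.54 to 41.6 ± 6.29 CPM (log2 fold change 0.46 ± 0.11, adjusted p = 0.00401). In low glucose, 28.6 ± 3.79 against 34.4 ± 0.934 CPM, the difference of 0.26 ± 0.11 did not pass (adjusted p = 0.0821). It passed without L_C replicate 2 (adjusted p = 0.0212) and with plain library totals (adjusted p = 0.0226). H_O exceeded L_O by 0.27 ± 0.11 with groups that did not overlap, yet the adjusted p was 0.157.

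Nfkbiz (chr16:55811375-55838899, minus strand) encodes the atypical nuclear IκBζ, which helps NF-κB activate a set of secondary genes. It was the member with no call in any comparison, at 10.6 ± 2.17, 11.8 ± 1.03, 11.7 ± 1.29 and 11.3 ± 1.47 CPM in L_C, L_O, H_C and H_O, with a range of 8.57 to 13.5 over all 16 libraries. The groups overlapped in every comparison, and its adjusted p-values were 0.485, 0.832, 0.559 and 0.875 for ox-LDL in low and in high glucose and for high glucose without and with ox-LDL. Of the 4 other IκB genes tested, Nfkbie rose in high glucose with ox-LDL, from 10.4 ± 0.862 to 14.3 ± 1.86 CPM (adjusted p = 0.00687), and Nfkbib fell in low glucose, from 35.7 ± 7.87 to 27.2 ± 3.29 (adjusted p = 0.0159). Nfkbib stood at 47.5 CPM in L_C replicate 4 and at 31.5 to 32.3 in the other L_C libraries, and its log2 fold change was -0.39 with that library and -0.22 without it (adjusted p = 0.0351). Without that library it passed in high glucose too (-0.20, adjusted p = 0.0431). Bcl3 and Nfkbid passed in none of the 4 comparisons. With 1 call in each ox-LDL comparison, this list of 4 was near the shares of all entries, 25.8% and 21.9%.

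Tnfaip3 (chr10:19000910-19015657, minus strand), which encodes A20, moved the other way from Nfkbia. Its levels were 72.1, 69.3, 75.5 and 76.0 CPM in L_C, 53.8, 62.8, 63.2 and 58.5 in L_O, 77.6, 80.3, 83.7 and 79.2 in H_C, and 65.5, 58.7, 65.1 and 67.2 in H_O. All 8 ox-LDL libraries lay below all 8 libraries without it. The fall was 1.23-fold in low glucose (log2 fold change -0.30 ± 0.058, adjusted p = 0.000798) and 1.25-fold in high glucose (-0.32 ± 0.058, adjusted p = 0.000421). H_C libraries also lay above all L_C libraries, by 0.13 ± 0.058 on the log2 scale, which did not pass (adjusted p = 0.153). The 2 κB-bearing feedback genes Nfkbia and Tnfaip3 thus differed in direction under ox-LDL in high glucose.

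Of 10 other genes for ubiquitin-based brakes on NF-κB, 5 were lower and 0 higher in each ox-LDL comparison, namely Tnip1, Tnip3, Cyld, Itch and Tax1bp1 in each. Among all entries 13.8% were called lower in low glucose and 11.5% in high glucose. Tnip3, which encodes an A20-binding protein, had the largest change of those examined in detail, from 11.0 ± 1.01 to 5.27 ± 1.10 CPM in low glucose (adjusted p = 4.86e-05) and from 9.35 ± 1.71 to 4.31 ± 0.594 in high glucose (adjusted p = 3.66e-05). Tax1bp1, an adaptor that brings A20 to its substrates, fell from 388 ± 14.6 to 307 ± 8.42 CPM and from 406 ± 6.94 to 308 ± 14.5 (adjusted p = 5.51e-06 and 8.44e-07). None of the 10 passed in either glucose comparison, and 1 rose in each without L_C replicate 4.

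Nfkb1 (chr3:135584655-135691547, minus strand) encodes p105, the precursor of the p50 subunit. It varied least of all members, between 98.5 and 118 CPM. L_C held 114, 118, 110 and 117 CPM and L_O 104, 100, 98.5 and 99.5, a fall of 1.14-fold without overlap (log2 fold change -0.19 ± 0.037, adjusted p = 0.000875). H_C held 111, 111, 110 and 114 CPM and H_O 103, 107, 106 and 104, again without overlap, but the difference of -0.09 ± 0.037 did not pass (adjusted p = 0.119). It did pass with DESeq2 (adjusted p = 0.0432). The fall in low glucose was small in fold yet exceeded the replicate spread.

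Nfkb2 (chr19:46304320-46312385, plus strand) and Relb (chr7:19606217-19629438, minus strand) encode the subunits of the non-canonical NF-κB dimer, p100/p52 and RelB. Relb stood at 24.0, 28.0, 23.6 and 19.6 CPM in L_C, 18.3, 15.4, 15.6 and 15.5 in L_O, 20.7, 21.8, 20.4 and 21.9 in H_C, and 12.5, 14.0, 16.4 and 11.6 in H_O. Every ox-LDL library lay below every library without ox-LDL. Relb fell 1.47-fold in low glucose (log2 fold change -0.56 ± 0.11, adjusted p = 0.000885) and 1.56-fold in high glucose (-0.64 ± 0.11, adjusted p = 0.000288).

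Nfkb2 held 42.3, 43.3, 42.8 and 34.5 CPM in L_C and 35.4, 37.9, 31.5 and 31.3 in L_O, with overlap through L_C replicate 4. It held 41.2, 36.7, 45.6 and 41.9 CPM in H_C and 29.0, 37.2, 29.7 and 26.8 in H_O, with overlap through H_O replicate 2. The fall passed in high glucose (log2 fold change -0.43 ± 0.10, adjusted p = 0.00456). In low glucose it was -0.26 ± 0.10 with an adjusted p of 0.0724, and it passed in the fit that left out L_C replicate 4 and H_O replicate 2 (adjusted p = 0.00241). Nfkb2 exons overlap those of the antisense gene Psd (1.02 to 3.23 CPM). The strand setting of the counting is not given in the sources used here, so reads from the overlap cannot be assigned. About 14.9% of Nfkb2 transcript sequence, taken as stretches of 50 bases, is shared with other genes. Of the subunits outside the list of members, Rel (c-Rel) fell from 73.9 ± 11.9 to 50.3 ± 2.45 CPM in low glucose (adjusted p = 8.62e-05) and from 62.0 ± 4.04 to 48.9 ± 3.10 in high glucose (adjusted p = 0.00699). Rela (p65) fell from 104 ± 19.3 to 75.4 ± 0.787 in low glucose (adjusted p = 0.000534), with 97.2 ± 3.84 against 82.9 ± 2.44 in high glucose (adjusted p = 0.0632). Both were highest in L_C replicate 4, Rel at 91.5 CPM against 66.8 to 70.0 and Rela at 132 against 91.2 to 99.6. Without that library the low-glucose log2 fold changes were -0.43 for Rel and -0.32 for Rela, in place of -0.55 and -0.46, and both passed (adjusted p = 8.89e-06 and 7.94e-06). The Rela difference in high glucose, -0.23 on the log2 scale, then passed too (adjusted p = 0.000132).

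Upstream of the subunits, 10 genes for IκB kinases and the kinases above them gave 1 rise and 3 falls in L_O against L_C (2 falls without L_C replicate 4, H_O replicate 2 or H_C replicate 3), and 0 rises and 2 falls in H_O against H_C. With 25.8% and 21.9% of all entries called in these comparisons, the count in high glucose is near the background. Ikbke (IKKε), a kinase that also feeds interferon induction, showed the clearest change, from 161 ± 11.8 to 81.7 ± 1.91 CPM (adjusted p = 1.28e-10) and from 143 ± 5.46 to 70.8 ± 2.41 (adjusted p = 1.1e-10). It was also lower in both glucose comparisons (adjusted p = 0.0277 without ox-LDL and 0.0198 with it). Of 10 Toll-like receptor adaptors and kinases, 4 fell in low glucose and 3 fell and 1 rose in high glucose. Irak2, a kinase that sustains Toll-like receptor signalling, went from 103 ± 2.47 to 58.6 ± 1.29 CPM (adjusted p = 1.15e-10) and from 99.5 ± 3.29 to 56.9 ± 1.95 (adjusted p = 1.68e-10). Myd88, the central adaptor, was the rise in high glucose, from 49.0 ± 2.25 to 57.2 ± 3.26 CPM (adjusted p = 0.0141, and 0.0748 without H_C replicate 3).

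Icam1 (chr9:21015985-21028817, plus strand) encodes the adhesion molecule bound by the β2 integrins. It was highest in L_C, at 65.4, 69.3, 63.1 and 77.8 CPM. L_O held 55.2, 51.7, 48.1 and 47.0, H_C 54.2, 58.4, 51.9 and 57.4, and H_O 48.7, 64.1, 51.4 and 48.2. Every L_C library lay above every L_O and H_C library, and the other groups overlapped each other. Icam1 fell 1.36-fold with ox-LDL in low glucose (log2 fold change -0.45 ± 0.087, adjusted p = 0.000778) and 1.24-fold with high glucose (-0.31 ± 0.087, adjusted p = 0.0232). The high-glucose fall lost the call without H_C replicate 1 (adjusted p = 0.0639) or without H_C replicate 3 (adjusted p = 0.0839), the library high in mesothelial and fibroblast markers, whose part in the result was not tested. In high glucose ox-LDL gave -0.06 ± 0.087 (adjusted p = 0.684), and -0.166 (adjusted p = 0.0463) in the fit without L_C replicate 4 and H_O replicate 2. The difference between these ox-LDL effects, 0.38 ± 0.12, had an edgeR unadjusted p of 0.00602 and an adjusted p of 0.331. About 13.1% of Icam1 transcript sequence, taken as stretches of 50 bases, is shared with other genes, so its reads are partly ambiguous. Icam1 exons also overlap those of the antisense entry Gm47079.

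Of 6 other genes of the ICAM family and its β2 integrin receptors, 1 rose and 3 fell in each ox-LDL comparison. The shares of all entries called there were 25.8% in low and 21.9% in high glucose. Itgam rose from 647 ± 47.4 to 818 ± 31.7 CPM (adjusted p = 0.00011) and from 505 ± 17.7 to 833 ± 51.8 (adjusted p = 1.47e-08), whereas Itgax fell from 767 ± 37.1 to 380 ± 13.7 (adjusted p = 2.85e-10) and from 596 ± 9.25 to 291 ± 26.3 (adjusted p = 2.49e-10). Itgal, the α chain of the main ICAM1 receptor, and the shared β chain Itgb2 were the other falls. Itgal was the gene of this list that high glucose raised, from 241 ± 10.9 to 285 ± 3.76 CPM without ox-LDL (adjusted p = 0.00399), opposite in direction to Icam1. Itgax also belongs to the marker list of small peritoneal macrophages and monocytes, of which 7 of 9 tested genes fell in low glucose and 4 of 9 in high glucose with ox-LDL. The part of that shift in the falls of Itgax or Icam1 was not tested.

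Gadd45b (chr10:80930073-80932204, plus strand) encodes a stress-induced NF-κB target that restrains JNK signalling. It had the smallest adjusted p of the members in both ox-LDL comparisons. L_C held 102, 96.6, 96.1 and 68.1 CPM, L_O 30.0, 33.9, 30.6 and 29.9, H_C 88.2, 85.8, 84.0 and 90.6, and H_O 23.3, 24.8, 28.3 and 28.2. The lowest library without ox-LDL, L_C replicate 4 at 68.1 CPM, was still above the highest with it, at 33.9. The fall was 2.91-fold in low glucose, to 31.1 ± 1.90 CPM (log2 fold change -1.54 ± 0.10, adjusted p = 1.99e-09), and 3.33-fold in high glucose, to 26.1 ± 2.48 (-1.74 ± 0.10, adjusted p = 5.77e-10). H_O libraries lay below all L_O libraries, by -0.25 ± 0.10 on the log2 scale (adjusted p = 0.164). This last difference passed without L_C replicate 4, a library outside the comparison that enters the shared estimate of the spread (adjusted p = 0.00898). In the same gene family Gadd45g fell from 34.3 ± 7.23 to 19.7 ± 1.14 CPM (adjusted p = 0.000187) and from 31.3 ± 3.88 to 15.4 ± 1.89 (adjusted p = 1.63e-05), while Gadd45a, at 23.1 ± 1.5, 26.0 ± 0.757, 24.9 ± 3.04 and 22.7 ± 2.28 in L_C, L_O, H_C and H_O, passed in none. Cdkn1a (p21), a partner that GADD45 proteins bind, followed glucose rather than ox-LDL, at 56.1 ± 3.94 and 57.9 ± 3.85 CPM in low glucose and 35.1 ± 1.98 and 37.8 ± 4.23 in high glucose (adjusted p = 2.05e-05 without ox-LDL and 0.000106 with it).

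Acod1 (chr14:103046977-103056573, plus strand) had the largest fold change. L_C held 170, 228, 161 and 252 CPM and L_O 32.9, 26.8, 17.4 and 16.1. H_C held 107, 106, 151 and 124, and H_O 21.9, 86.0, 28.6 and 20.8. All libraries without ox-LDL lay above all libraries with it, and the H_O library at 86.0 CPM came closest to the H_C libraries. Acod1 fell 8.72-fold in low glucose, from 203 ± 44.1 to 23.3 ± 8.00 CPM (log2 fold change -3.12 ± 0.38, adjusted p = 4.81e-06). In high glucose it fell 3.11-fold, from 122 ± 21.1 to 39.3 ± 31.3 CPM (-1.63 ± 0.35, adjusted p = 0.0023). Without H_O replicate 2 the H_O mean was 23.8 ± 4.19 CPM and the log2 fold change -2.36 (adjusted p = 9.72e-07).

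Leaving out that library also changed values in the other Acod1 comparisons. H_C lay below L_C without overlap, by -0.73 ± 0.34 on the log2 scale, with an adjusted p of 0.179 in the fit of all libraries and 0.0206 without H_O replicate 2. That library is outside this comparison and enters the shared estimate of the spread. Without it the log2 fold change stayed at -0.73 and the SE was 0.2. H_O against L_O was 0.76 ± 0.36 (adjusted p = 0.259), and 0.03 without that library (adjusted p = 0.978). The difference of the ox-LDL effects was 1.49 ± 0.50, with an edgeR unadjusted p of 0.00798 and an adjusted p of 0.36. Without H_O replicate 2 this log2 difference was 0.764 (adjusted p = 0.615). In H_O replicate 2 the Acod1 level was 1.86 higher on the log2 scale than the mean of the other 3, rank 3 of 8351 entries, and Nos2 (2.18 against 0.345 to 0.627 CPM) and Cxcl3 (3.63 against 0.922 to 0.954), products of classical activation, were high there too. Ciita stood at 29.1 against 11.0 to 17.4 CPM and Irf1 at 97.5 against 55.6 to 74.1. Nfkbia, Nfkbiz, Nfkb2 and Icam1 were at their H_O maximum in this library, at 49.3, 13.5, 37.2 and 64.1 CPM, whereas Tnf at 9.33 lay within the range of the others and Tnfaip3 at 58.7 was the lowest.

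**Figure D3:**
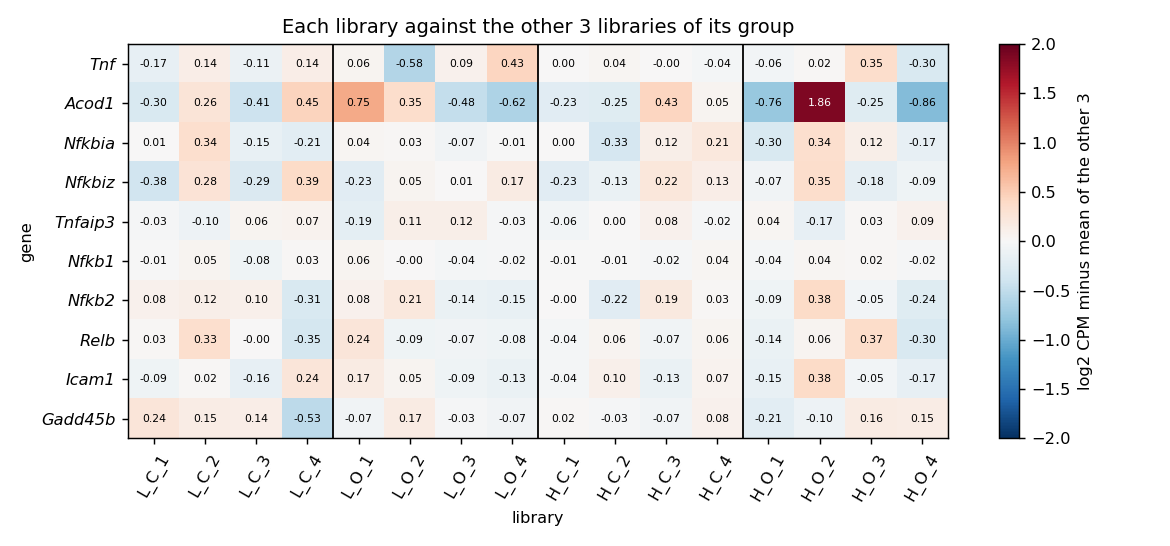
Log2 CPM of each library (x axis) minus the mean of the other 3 libraries of its group, for the 10 genes (y axis), with the value in each cell and colour from blue (lower) to red (higher). H_O replicate 2 stands out for Acod1 at 1.86, and L_C replicate 4 is low for Gadd45b at -0.53.

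More of the enzymes around itaconate rose than fell with ox-LDL. Of 17 other genes for itaconate handling and the tricarboxylic acid cycle, 9 rose and 2 fell in L_O against L_C, and 6 rose and 1 fell in H_O against H_C, with median log2 fold changes of 0.143 and 0.163. Without L_C replicate 4, 7 rose and 2 fell in the former and 13 rose and 1 fell in the latter. In the fit of all libraries, 12% of all entries were called higher in the former and 10.4% in the latter. Suclg2, a subunit of a succinyl-CoA ligase, rose from 11.8 ± 1.67 to 18.9 ± 1.62 CPM (adjusted p = 0.000133) and from 11.8 ± 1.58 to 19.5 ± 1.23 (adjusted p = 8.71e-05). Idh2, a mitochondrial isocitrate dehydrogenase, rose from 36.5 ± 3.73 to 49.6 ± 2.07 (adjusted p = 8.03e-05) and from 33.8 ± 1.85 to 41.0 ± 1.43 (adjusted p = 0.00594). Tfeb, a transcription factor of lysosome genes, was a gene that fell in each, from 85.3 ± 4.50 to 65.3 ± 2.45 and from 72.7 ± 3.97 to 57.7 ± 3.31 CPM (adjusted p = 3.86e-05 and 0.000212).

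Interferon signalling genes, which can act upstream of Acod1, fell in varying number in the 4 comparisons. Of 14 tested, 11 fell in L_O against L_C, 5 in H_O against H_C, 9 in H_C against L_C and 1 in H_O against L_O, and 0 rose in any of these, with medians of -0.506, -0.145, -0.298 and -0.095. The shares of all entries called lower were 13.8%, 11.5%, 7.75% and 3.39% in the same order. Without H_O replicate 2, 8 fell in H_O against H_C (median -0.272), and the call in H_O against L_O was lost (median -0.162). Irf1 stood at 250 ± 27.7 CPM in L_C, 90.3 ± 21.1 in L_O, 136 ± 14.9 in H_C and 71.5 ± 19.1 in H_O, the same order of L_C over H_C over the ox-LDL groups as Acod1. Irf1 fell with ox-LDL (adjusted p = 1.95e-06 and 0.000329) and with high glucose without ox-LDL (adjusted p = 0.00143). Irf7 did likewise, at 110 ± 19.9, 53.4 ± 6.66, 67.7 ± 5.69 and 44.2 ± 5.87 CPM. H_C and L_C enter more than 1 of these comparisons, so the counts are not independent of each other.

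Other known NF-κB targets were mixed. Of 37 tested, 5 rose and 19 fell in L_O against L_C (median -0.44), and 6 rose and 12 fell in H_O against H_C (median -0.226). The first median was -0.281 without L_C replicate 4, and the second -0.344 without H_O replicate 2. Among all entries 25.8% were called in L_O against L_C and 21.9% in H_O against H_C. Ccrl2, a chemerin-binding receptor, fell from 116 ± 13.4 to 41.0 ± 3.22 CPM and from 126 ± 2.74 to 40.8 ± 4.12 (adjusted p = 2.76e-10 and 1.1e-10). Ccl5, a chemokine, fell with ox-LDL from 21.9 ± 3.76 to 7.13 ± 0.619 and from 34.4 ± 3.11 to 12.3 ± 2.34 (adjusted p = 6.25e-08 and 1.31e-07), and rose with high glucose at both lipid states (adjusted p = 0.00261 and 0.00161). Bcl2l1, an anti-apoptotic gene, rose from 121 ± 8.50 to 173 ± 3.87 and from 113 ± 4.24 to 188 ± 3.23 (adjusted p = 1.67e-07 and 2.09e-09). Il6 and Csf2 had no row in the table, and Il12b and Csf3 were below the count filter.

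Over all 13 pathway lists, 140 of 144 genes were tested. The lists were chosen with earlier results of these data known, so shares above the background are not independent support. In L_O against L_C 18 rose and 60 fell, 55.7% of those tested against the background of 25.8%. In H_O against H_C 17 rose and 38 fell (39.3% against 21.9%). In H_C against L_C 4 rose and 21 fell (17.9% against 12.8%), and in H_O against L_O 3 rose and 7 fell (7.14% against 6.11%). The last of these counts was 12 and 15 without L_C replicate 4. None passed the test of a difference between the ox-LDL effects, where 2 of all entries did (0.0148%), and 19 of the 140 had an unadjusted edgeR p under 0.05. Among the members the corresponding count was 3 of 10, namely Tnf, Icam1 and Acod1, where 8.58% of all entries had such a p.

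**Figure D4:**
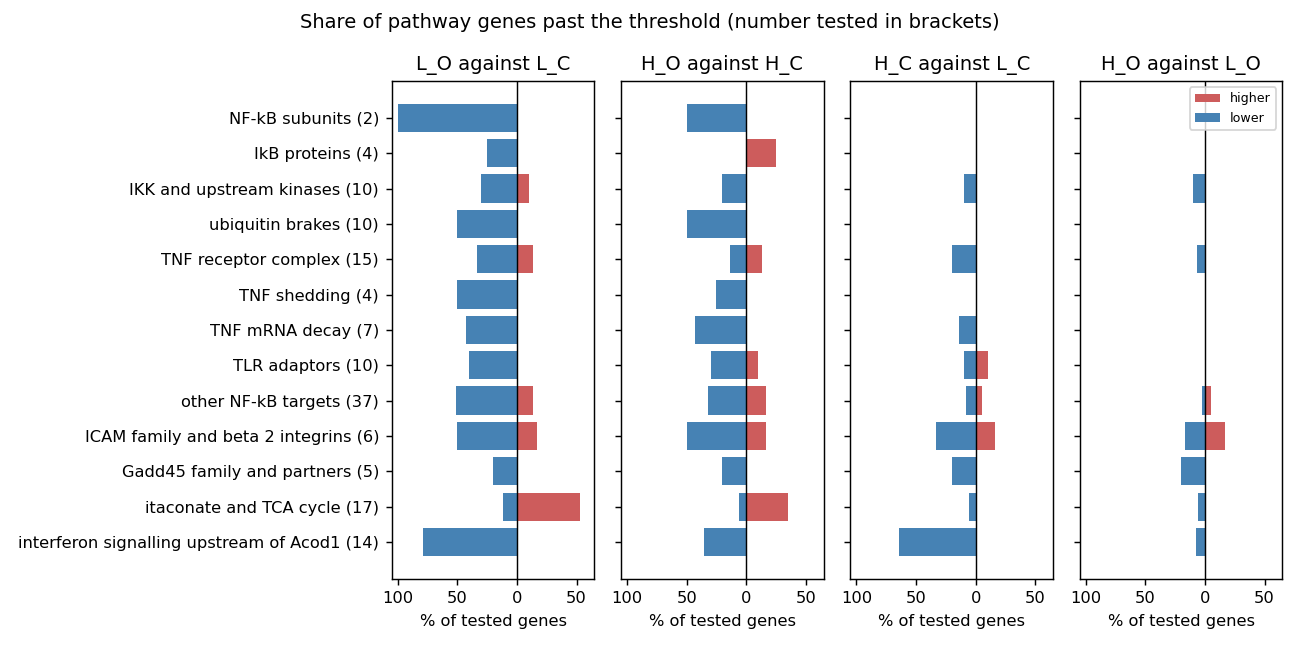
Share of the tested genes of 13 pathway lists (y axis, number tested in brackets) that were higher (red, right) or lower (blue, left) at an edgeR adjusted p under 0.05, in percent (x axis), in the 4 comparisons. Blue bars lead in most lists of both ox-LDL panels, the itaconate and tricarboxylic acid cycle list is mostly red, and the interferon list has the longest bar in H_C against L_C at 9 of 14 genes.

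Levels of different genes were compared per length, as CPM per kilobase of annotated exon. In L_C the order of these levels was Acod1 (77.3), Gadd45b (57.0), Nfkbia (17.8), Icam1 (15.8), Tnfaip3 (10.1), Nfkb1 (9.50), Nfkb2 (8.88), Tnf (6.28), Relb (6.13) and Nfkbiz (2.12). Ranges over libraries overlapped between neighbours for Acod1 and Gadd45b, Nfkbia and Icam1, Tnfaip3 and Nfkb1, Nfkb1 and Nfkb2, and Tnf and Relb. H_C kept Gadd45b (54.9) and Acod1 (46.5) at the top with overlap, followed by Nfkbia at 18.7, and Tnf there stood at 3.26, below Relb at 5.46 without overlap. With ox-LDL the top of the order changed. Nfkbia led in L_O at 21.4 and in H_O at 25.8, ahead of Gadd45b at 19.6 and 16.4, with overlap in L_O and none in H_O. Acod1 dropped to 8.88 in L_O, where it overlapped both Icam1 (11.6) and Nfkb1 (8.34), and to 15.0 in H_O, where it overlapped Gadd45b and Icam1 (12.2). Without H_O replicate 2 the H_O level of Acod1 was 9.07, and its 3 libraries at 7.95 to 10.9 lay below all of Gadd45b (14.7 to 17.8) and Icam1 (11.1 to 11.8). Nfkbiz was the lowest member in every group, at 2.12 to 2.34.

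The genes whose log2 CPM followed each member most closely over the 16 libraries were found by Pearson's r among 8350 other entries with sufficient level. These values are descriptions that share libraries and treatment groups. Gadd45b ran with Dnmt3a (r = 0.996), Fabp4 (0.992) and Daglb (0.992), and Acod1 with Cd74 (0.982), Cybb (0.980) and Il13ra1 (0.975). Without L_C replicate 4 and H_O replicate 2 the first of these were 0.997 and 0.990. Icam1 ran with Ciita (0.935), the regulator of MHC class II genes, Tnfaip3 with Ndrg1 (0.964), Nfkb1 with Dram1 (0.962), Relb with Hexa (0.964), Nfkb2 with Gtpbp2 (0.906), Tnf with Parvg (0.928) and Nfkbia with Lpin2 (0.904). Nfkbiz had the loosest match, Tpp2 at 0.770. Within the groups, after subtraction of each group's mean, the closest pair of members was Acod1 and Icam1 at r = 0.854 over 16 libraries. Over 14 without L_C replicate 4 and H_O replicate 2 this pair was at 0.638, and the closest was Nfkb1 and Icam1 at 0.801. Tnfaip3 and Nfkb1, which fell together with ox-LDL in low glucose, had r = -0.657 within groups and -0.739 over those 14 libraries.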

How the data were processed

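RNA was sequenced from 16 libraries, 4 per group. The deposited values are raw counts per gene, whole numbers that the authors did not normalise, as the values show. Per the submitters' processing notes the tools were HISAT2 and DESeq2 and the build mm10. The counter, annotation and strand setting are not given in the sources used here. Of 15871 entries, 1594 without a gene annotation stayed in as entries of their own.

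Counts were tested with edgeR 4.0.16 (quasi-likelihood F test, TMM scaling, filterByExpr by group, a group mean model over all 16 samples with 12 residual degrees of freedom) in R 4.3.3. Benjamini-Hochberg adjustment ran over 13527 entries, with a threshold of 0.05. The steps were tested on simulated data. CPM used TMM-scaled totals, and log2 CPM a prior count of 2. Levels per length used GENCODE M21 exons. Depth was 32596640 to 41712885 counts per library. Alternatives were DESeq2 1.42.0, limma-voom (limma 3.58.1), plain library totals, other count filters, the compared samples alone, a replicate block and leaving out libraries.

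The members and gene lists were chosen with earlier results of these data known. All 10 members are named. From each list up to 4 genes with the smallest adjusted p in any of the 4 pairwise comparisons were taken as examples, and for likeness the 3 annotated genes with the highest r among entries with a mean log2 CPM of at least 3. Genes described as high in H_O replicate 2 were chosen after their values were seen.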

Additional observations from a re-analysis of the deposited data

Results flagged for a closer look

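In 5 of 40 groups of 4 libraries, 1 library's level of a member lay far enough from the nearest other to pass Dixon's 95% criterion, where chance alone passes about 1 in 20 groups. Acod1 was at 86.0 CPM in H_O replicate 2 and at 20.8 to 28.6 in the other H_O libraries. In L_C replicate 4, the library with the highest mitochondrial share at 3.71%, Nfkb2 was at 34.5 CPM against 42.3 to 43.3 and Gadd45b at 68.1 against 96.1 to 102. Relb was at 18.3 CPM in L_O replicate 1 against 15.4 to 15.6 in the rest of its group. Gadd45b was at 33.9 CPM in L_O replicate 2 against 29.9 to 30.6. The part of the mitochondrial share in the L_C values was not tested.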

How the results depend on the processing

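Of the 10 log2 fold changes in 5 comparisons, 783 values from fits that left out 1 library each kept their direction and side of the threshold, 8 reversed, 7 gained and 2 lost a call, and under the other settings 572 kept both, 5 reversed, 13 gained and 0 lost a call. Members called ranged from 1 to 3 in H_C against L_C and from 0 to 1 in H_O against L_O when 1 library was left out. In H_O against L_O, 1 member was called with only the 8 samples compared, 1 by limma-voom with array quality weights and 2 with both L_C replicate 4 and H_O replicate 2 left out. The last setting and the quality weights were chosen after seeing the data. Over all entries, H_C against L_C gave 1728 calls and 914 with the 8 samples. H_O against L_O gave 826, and 1619 with the 8 samples, 1449 without both libraries, 1846 with quality weights, and 526 to 1763 with 1 library left out. The difference of the ox-LDL effects gave 2 calls, and 94 by DESeq2, 0 by limma-voom, 24 without both libraries, 75 with quality weights and 0 to 53 with 1 library left out.

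Reversals were all of values near 0. With plain library totals, H_O against H_C gave 0.009 for Nfkbiz and 0.002 for Icam1. Nfkb2 in H_C against L_C was -0.05 without both libraries, -0.056 with quality weights and -0.05 to 0.075 with 1 library left out. Gadd45b in that comparison ranged from -0.171 to 0.004 with 1 library left out, Icam1 in H_O against L_O from -0.031 to 0.116 (-0.031 without both libraries), and the Tnfaip3 difference of ox-LDL effects from -0.071 to 0.015. The cause was not tested. Plain totals moved the median of all entries by at most 0.0858.

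Replicate numbers share only a number: deviations of same-numbered libraries correlated at -0.165 to 0.104 over 8672 entries, and 3 of 16 libraries correlated best with their own number. With the replicate block, 6, 7, 2, 0 and 0 members were called, as without it, and the block left 0 calls over all entries in the difference of ox-LDL effects.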
